A study of Mus musculus with 14 samples.

Results

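The 10 genes described here, Cd68, Adgre1, Csf1r, Mrc1, Cd163, F13a1, C1qa, C1qb, C1qc and Cd14, are markers of tissue macrophages. They were listed by symbol and are 10 of the 46095 gene symbols whose reads were counted in the superior mesenteric artery (SMA), the vessel that feeds most of the gut. RNA-seq covered 14 C57BL/6 mice aged 8 weeks in 4 groups. Under normal conditions 3 WT (Drp1 +/+) and 4 Drp1 KO animals were sampled, and a further 3 WT and 4 KO animals were sampled after ischemia. Drp1, the product of Dnm1l, is the GTPase that divides mitochondria. The labels give the KO genotype as Drp1 flox/+, whereas the study's methods describe heterozygous mice in which CRISPR/Cas9 editing shifted the reading frame. The KO mice thus keep an intact allele, and no Cre driver is named. The labels give the ischemia as 2 h, whereas the study's text names these groups by a longer period. Ischemia was brought about by withdrawing blood through the femoral artery. Each library was labelled as a separate mouse, so the p-values below measure the spread between mice.

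Dnm1l stood at 63.8 to 90.9 CPM (counts divided by library size, with TMM scaling) in WT mice and 54.8 to 62.2 CPM in KO mice under normal conditions, and at 63.1 to 81.0 CPM and 60.0 to 76.0 CPM after ischemia. The KO against WT log2 fold change was −0.32 ± 0.16 (SE) under normal conditions and −0.11 ± 0.16 after ischemia, with adjusted p-values of 0.974 and 0.872 in edgeR's quasi-likelihood test. The total count per mouse was 25612646 to 40255851, and 3 counts, taken as the smallest level that this depth can show, correspond to 0.0678 to 0.113 CPM (counting error only). The tissue label was checked against marker genes, and smooth muscle Acta2 (mean 11087 CPM over the 14 mice) and Myh11 (7599 CPM) and endothelial Pecam1 (439 CPM) were abundant. Fabp4, a gene of fat cells, was abundant as well (3027 CPM). Ucp1, a brown adipocyte gene, averaged 1698 CPM and ran from 40.2 to 4072 CPM over the mice. Some standard markers were listed at or near 0, and the cause was not tested, among them Aif1, a general macrophage gene with 0 counts in all 14 mice, and Tagln, a smooth muscle gene at a mean of 2.85 CPM. A low value in this table is therefore not read as absence of the transcript. One library, WT replicate 3 under normal conditions, came from lane 1 and the other 13 from lane 8, so lane and mouse cannot be told apart there.

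Macrophages of the artery wall sit mostly in its outer layer, where they clear debris, take up modified proteins and lipids and sense microbial products. Survival of these cells depends on CSF1R, the receptor for the growth factors CSF1 and IL-34. Macrophages are also a main source of C1q, the recognition molecule of the classical complement pathway, whose A, B and C chains are assembled from the products of neighbouring genes. Transcription of many macrophage genes depends on PU.1, the protein encoded by Spi1, which binds DNA at a core of GAGGAA.

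C1qb (chr4:136880129-136886187), C1qc (chr4:136889804-136893065) and C1qa (chr4:136895917-136898803) lie in this order on the minus strand of GRCm38, in a span of 18.7 kb that holds no other annotated gene (GENCODE M21). The other members are spread over the genome. Cd68 lies at chr11:69664213-69666153 on the minus strand, Adgre1 at chr17:57358691-57483527 on the plus strand, Mrc1 at chr2:14229392-14332057 on the plus strand, Cd163 at chr6:124304656-124330527 on the plus strand and F13a1 at chr13:36867178-37050244 on the minus strand. Mrc1 shares its span with Mir511, F13a1 with the antisense genes Gm49144 and Gm30489, and Csf1r with Hmgxb3 on the opposite strand and with Mir6983. The use of strand in counting is not given in the sources used here, so reads of these pairs cannot be told apart.

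RefSeq promoters on GRCm38.p6 were found for 6 of the 8 members looked up, in 7 windows of 250 bases upstream of the start. The PU.1 core (GAGGAA, or TTCCTC on the other strand) was present in 5 of these 7 windows and in 23.3% of 32851 mouse promoter windows of the same length. CCAAT or ATTGG occurred in 4 of the 7 windows and in 33.8% of all windows. The C/EBP palindrome TTGCGCAA, the E-box CACGTG and TATAAA (or TTTATA), present in 0.164%, 6.02% and 12.4% of all windows, were not found in these 7 windows. A match of letters is a description of the sequence, not a binding site. The stretches of these windows that lie outside annotated genes are printed for 4 members, 2 chains of C1q, a lysosomal protein and a scavenging receptor, whose levels moved together across mice, with the PU.1 core in capitals and each sequence written 5′ to 3′ on the strand of its gene.
C1qb promoter, chr4:136886201-136886450, minus strand: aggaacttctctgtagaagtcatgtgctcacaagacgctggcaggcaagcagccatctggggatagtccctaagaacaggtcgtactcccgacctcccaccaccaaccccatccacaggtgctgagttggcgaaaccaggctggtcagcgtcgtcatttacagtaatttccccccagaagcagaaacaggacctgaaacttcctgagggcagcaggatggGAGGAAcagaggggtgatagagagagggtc
C1qc promoter, chr4:136893066-136893164, minus strand: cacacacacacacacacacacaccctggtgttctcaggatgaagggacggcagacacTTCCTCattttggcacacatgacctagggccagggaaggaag
Cd68 promoter, chr11:69666171-69666420, minus strand: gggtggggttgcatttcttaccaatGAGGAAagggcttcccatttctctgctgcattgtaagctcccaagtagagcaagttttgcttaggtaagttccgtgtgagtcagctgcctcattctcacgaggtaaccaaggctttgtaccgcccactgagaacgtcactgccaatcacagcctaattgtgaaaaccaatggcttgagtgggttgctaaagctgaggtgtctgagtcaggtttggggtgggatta
Mrc1 promoter, chr2:14229164-14229391, plus strand: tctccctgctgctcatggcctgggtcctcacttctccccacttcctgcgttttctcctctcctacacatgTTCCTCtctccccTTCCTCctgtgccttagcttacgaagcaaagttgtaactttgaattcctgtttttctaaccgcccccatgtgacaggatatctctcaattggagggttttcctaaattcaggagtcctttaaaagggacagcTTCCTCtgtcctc
The Mrc1 stretch holds 3 copies of the core, and the C1qb, C1qc and Cd68 stretches hold 1 copy each. Levels of Cd163 and F13a1 moved with these genes as well. Their stretches are not printed, and hold 0 copies (Cd163) and 1 copy (F13a1).

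All 10 members were detected in each of the 14 mice, with a lowest count of 33 for Adgre1, and all 10 passed the low-count filter that left 17693 genes for testing. Divided by exonic length, the mean level over the 14 mice was highest for C1qa (55.2 CPM per kb) and C1qb (51.2), followed by C1qc (25.5), Cd68 (9.99), Cd14 (8.87), F13a1 (7.77), Csf1r (6.55), Cd163 (4.89), Mrc1 (4.62) and Adgre1 (2.67). The ranges over mice of all neighbours in this order overlapped. C1qb was above C1qc and C1qc above Cd68 in 14 of 14 mice. C1qa was above C1qb in 9 of the 14, Cd68 above Cd14 in 8 and Cd14 above F13a1 in 6. The order within these pairs was thus not fixed. The length used joins the exons of all annotated transcripts, 1088 bases for C1qb and 1931 for C1qc. Without this division C1qb and C1qc averaged 55.7 and 49.3 CPM. In WT replicate 2 under normal conditions C1qc counts exceeded those of C1qb (0.869 and 0.794 per C1qa count).

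The sum of the 10 genes ranged from 89.8 CPM in WT replicate 1 after ischemia to 748 CPM in KO replicate 2 under normal conditions. Under normal conditions the mean sum of the WT group (n = 3) was 298 ± 136 CPM (SD) and that of the KO group (n = 4) was 544 ± 208 CPM (SD). After ischemia the mean sums were 205 ± 101 CPM (SD, WT, n = 3) and 286 ± 114 CPM (SD, KO, n = 4). In bulk tissue, fewer macrophages and less RNA per macrophage cannot be told apart. WT replicate 1 after ischemia stood apart from the other mice, with the lowest level of all 14 mice in 9 of the 10 members, Cd14 being the exception. KO replicates 2 and 4 under normal conditions held the highest level in 5 and 4 members. KO replicate 1 was the lowest of the 4 KO mice under normal conditions in all 10 members, and WT replicate 1 was the highest of the 3 WT mice under normal conditions in 9. The fold between the lowest and highest mouse ran from 5.98 for F13a1 to 19.4 for Adgre1.

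**Figure D1:**
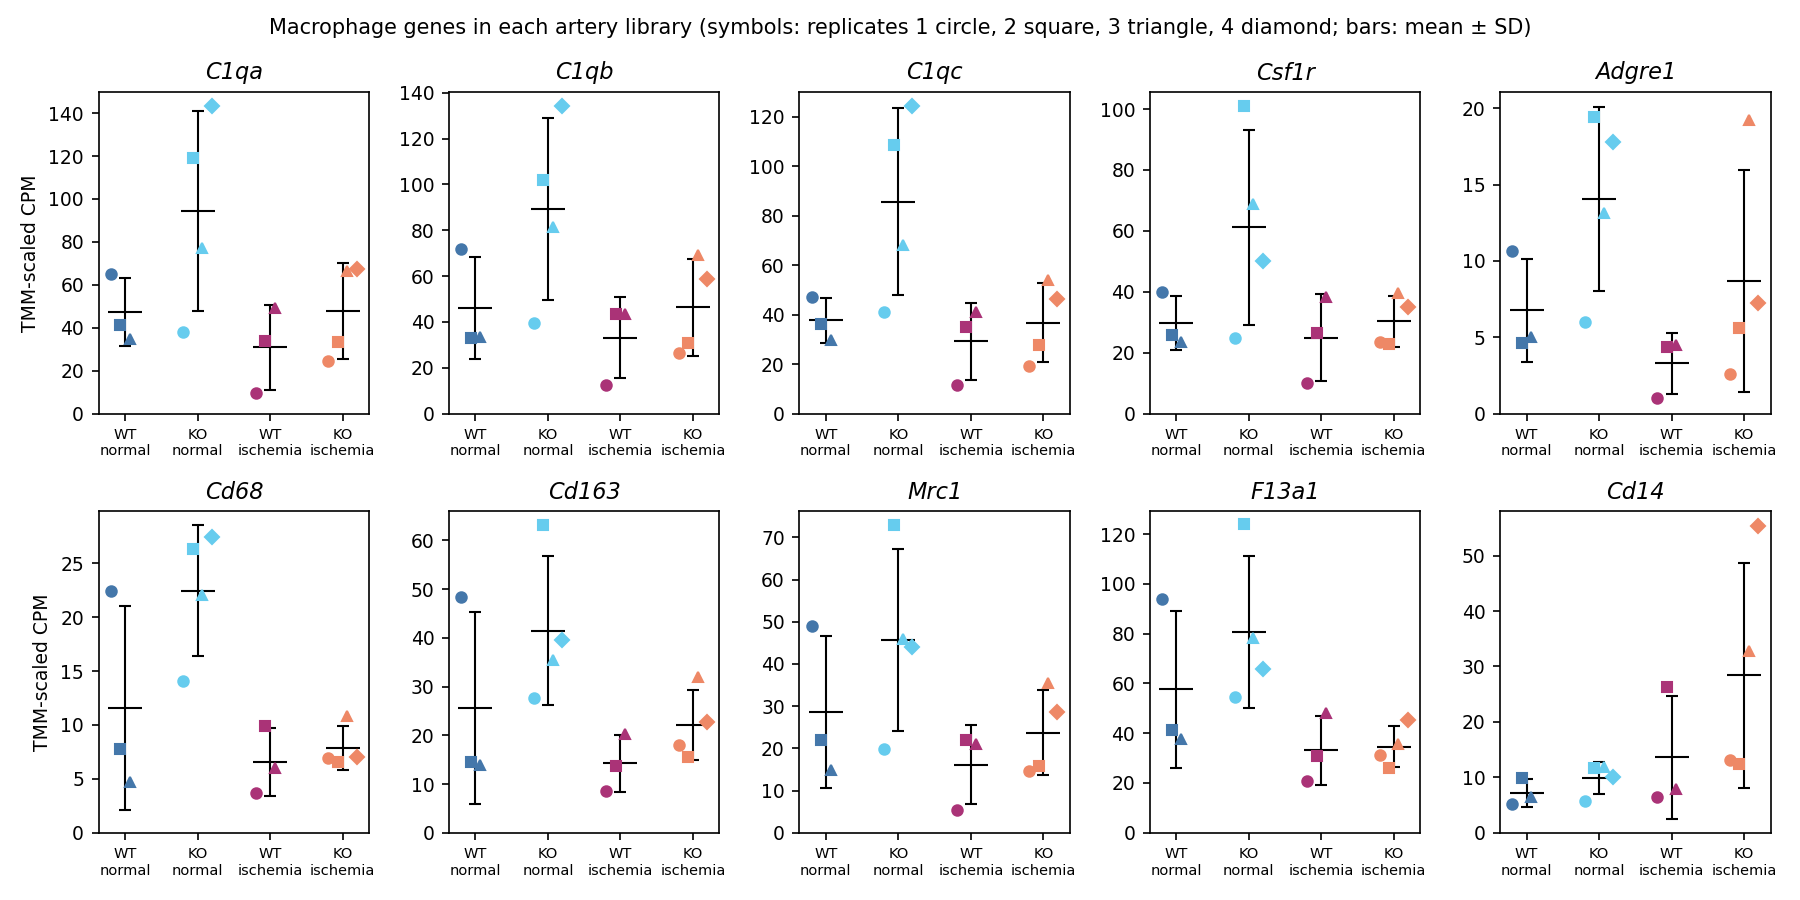
Level of each of the 10 macrophage genes in each mouse, in TMM-scaled CPM on linear axes that start at 0. Colours mark the 4 groups and symbols the replicate number, and bars give the mean ± SD. In 9 panels the KO mice under normal conditions hold the highest mouse, with C1qa reaching 143 CPM, while in the Cd14 panel the highest mouse is a KO mouse after ischemia at 55.4 CPM.

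Csf1r encodes the receptor for CSF1 and IL-34. Csf1r stood at 40.0, 25.7 and 23.4 CPM in the WT mice and at 24.8, 101, 68.8 and 50.0 CPM in the KO mice under normal conditions, and at 9.97, 26.6 and 38.3 CPM in the WT mice and 23.6, 22.9, 39.6 and 35.1 CPM in the KO mice after ischemia. The KO mice under normal conditions spread over a wider range than any other group, and each pair of groups overlapped. Adgre1 encodes F4/80, an adhesion G protein-coupled receptor on mature mouse macrophages. Adgre1 stood at 10.7, 4.62 and 4.98 CPM in the WT mice and at 5.98, 19.5, 13.1 and 17.8 CPM in the KO mice under normal conditions, and at 1.003, 4.39 and 4.47 CPM in the WT mice and 2.62, 5.59, 19.2 and 7.27 CPM in the KO mice after ischemia. All 3 WT mice after ischemia were below all 3 WT mice under normal conditions, but only just, with the nearest mice at 4.47 and 4.62 CPM. They were also below all 4 KO mice under normal conditions, and the other pairs of groups overlapped.

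Cd68 encodes a lysosomal glycoprotein of phagocytes. Under normal conditions the Cd68 level was 22.4, 7.74 and 4.68 CPM in WT mice and 14.1, 26.3, 22.1 and 27.4 CPM in KO mice, and after ischemia it was 3.71, 9.93 and 6.02 CPM in WT mice and 6.95, 6.54, 10.8 and 7.05 CPM in KO mice. All 4 KO mice after ischemia were below all 4 KO mice under normal conditions, whereas the WT groups overlapped. Cd163 encodes the scavenger receptor for haemoglobin bound to haptoglobin. Cd163 stood at 48.4, 14.6 and 13.9 CPM in the WT mice and at 27.6, 63.1, 35.4 and 39.6 CPM in the KO mice under normal conditions, and at 8.64, 13.7 and 20.4 CPM in the WT mice and 18.0, 15.6, 31.9 and 22.7 CPM in the KO mice after ischemia. The lowest KO mouse under normal conditions lay below the highest KO mouse after ischemia. Mrc1 encodes the mannose receptor CD206, which takes up glycoproteins. Its level ran from 14.9 to 48.9 CPM in WT and 19.9 to 72.8 CPM in KO mice under normal conditions, and from 5.41 to 22.0 CPM and 14.7 to 35.4 CPM after ischemia, with all groups overlapping.

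C1qa, C1qb and C1qc encode the chains of C1q. The WT mice had C1qc levels of 47.3, 36.0 and 29.6 CPM under normal conditions and 11.5, 35.1 and 41.0 CPM after ischemia, and the KO mice had 41.2, 109, 68.3 and 124 CPM and 19.1, 27.9, 53.9 and 46.3 CPM. Only KO replicate 1 under normal conditions lay within the range of the KO mice after ischemia. C1qa ranged from 9.79 to 143 CPM and C1qb from 12.5 to 134 CPM over the 14 mice, with the same lowest and highest mouse as C1qc. Within a mouse, the ratio of C1qb to C1qa was 0.794 to 1.28 (median 0.998) and that of C1qc to C1qa 0.690 to 1.17 (median 0.859), narrow beside the 14.6-fold range of C1qa itself.

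F13a1 encodes the A subunit of coagulation factor XIII, which cross-links fibrin and is made by resident macrophages. Under normal conditions the F13a1 level was 93.9, 41.1 and 37.7 CPM in WT mice and 54.6, 124, 78.1 and 65.7 CPM in KO mice, and after ischemia it was 20.7, 30.8 and 48.1 CPM in WT mice and 31.3, 25.9, 35.5 and 45.3 CPM in KO mice. All 4 KO mice after ischemia were below all 4 KO mice under normal conditions. Cd14 encodes the co-receptor that hands lipopolysaccharide to TLR4, and it is made by monocytes, neutrophils and other cells as well as by macrophages. Cd14 stood at 5.13, 9.91 and 6.38 CPM in the WT mice and at 5.75, 11.7, 11.9 and 10.03 CPM in the KO mice under normal conditions, and at 6.51, 26.3 and 7.93 CPM in the WT mice and 13.1, 12.4, 32.7 and 55.4 CPM in the KO mice after ischemia. All 4 KO mice after ischemia were above all 4 KO mice under normal conditions, and in WT mice replicate 2 after ischemia was well above the other 5 mice.

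In KO mice after ischemia, 9 of the 10 genes had fitted values below those under normal conditions, and Cd14 had a value above. Values below 0 were fitted for 54.1% of all genes. The fitted log2 fold change was −1.52 ± 0.44 (SE) for Cd68, or 65.0% lower, −1.22 ± 0.35 for F13a1 and −1.22 ± 0.44 for C1qc. It was −1.01 for Csf1r, −0.98 for C1qa, −0.95 for Mrc1, −0.95 for C1qb, −0.91 for Cd163 and −0.70 for Adgre1. Cd14 went the other way, at 1.53 ± 0.53, or 2.89-fold higher. The median of the 10 was −0.96, beside −0.05 over all 17693 genes tested. With 1 mouse left out, no value changed sign, and 4 moved by over 1.5 times. Without KO replicate 3 after ischemia Adgre1 was at −1.45 and without KO replicate 1 after ischemia at −0.40, without KO replicate 2 under normal conditions Csf1r was at −0.66 and Mrc1 at −0.63, and without KO replicate 4 after ischemia Cd14 was at 0.98.

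In edgeR's quasi-likelihood test, with limits of 0.05 on the FDR and 1.5 on the fold change, 0 of the 10 members were called in ischemic against normal KO mice, where 0.294% of all genes were. The adjusted p-values closest to the limit were 0.167 for F13a1, 0.168 for Cd68, 0.243 for Cd14 and 0.254 for C1qc. At an unadjusted p under 0.05 there were 5 members lower (Cd68, F13a1, C1qc, Csf1r and Cd163) and 1 higher (Cd14), or 6 of 10 beside 13.2% of all genes, 7.47% lower and 5.75% higher. The groups did not overlap for 3 of 10 members, beside 11.1% of all genes. DESeq2 called 2 of the 10 in KO mice, Cd68 (adjusted p = 0.0313) and F13a1 (0.0337), beside 606 of all 17693 genes. Fitted on the KO groups alone, edgeR called 1, Cd68 (adjusted p = 0.0237), beside 267 of 15947 genes. The calls of these genes thus depend on the test.

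In WT mice the same 9 genes had fitted values below 0 after ischemia, beside 50.6% of all genes, from −1.04 for Adgre1 to −0.25 for Csf1r, and Cd14 stood at 0.93 ± 0.61 (SE). The median of the 10 was −0.70, beside −0.01 over all genes. In edgeR, 0 of the 10 members were called, where 0.0113% of all genes were, and 0 had an unadjusted p under 0.05, beside 9.57% of all genes. Adjusted p-values ran from 0.531 to 0.868. The groups did not overlap for 1 of 10 members, Adgre1, beside 11% of all genes. The WT values rested on single mice. Without WT replicate 1 under normal conditions Cd68 was at 0.07, Csf1r at 0.01, Cd163 at −0.014 and C1qb at −0.010, without WT replicate 1 after ischemia Csf1r was at 0.13 and C1qc at 0.02, and without WT replicate 2 after ischemia Cd14 was at −0.0019. With the replicate number as a block in the fit of all mice, edgeR called 0 of all genes here in place of 2. Again 0 members were called, with Adgre1 at −1.49 and Csf1r at −0.50. The block also covered the KO mice, whose same-numbered pairs did not all pass the pairing check. These values are therefore not from a paired fit of the 6 WT mice.

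The ischemia effect was also compared between the genotypes. The interaction term was below 0 for 8 of the 10 members, beside 51.1% of all genes, and ran from −0.85 ± 0.66 (SE) for C1qc to 0.60 ± 0.80 for Cd14. In edgeR 0 of the 10 were called and 0 of all genes were (0%), and the smallest adjusted p among the members was 0.946. The Cd14 term was 0.052 without KO replicate 4 after ischemia and 1.56 without WT replicate 2 after ischemia. At an unadjusted p under 0.05 there were 0 members and 4.32% of all genes. A response to ischemia that differed between the genotypes was therefore not shown for any of the 10 genes.

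Averaged over both genotypes, a comparison added after the single ones had been seen, the ischemic mice differed from those under normal conditions by −1.17 ± 0.33 (SE) for Cd68, −1.01 ± 0.27 for F13a1 and 1.23 ± 0.41 for Cd14. Their adjusted p-values in edgeR were 0.113, 0.0988 and 0.155, and 0 of the 10 members were called, beside 0.927% of all genes. DESeq2 called these 3 members in this comparison, with adjusted p-values of 0.0190, 0.0112 and 0.0418, beside 870 of all 17693 genes. At an unadjusted p under 0.05 in edgeR there were 5 members lower and 1 higher, beside 18.1% of all genes, 9.72% lower and 8.35% higher.

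**Figure D2:**
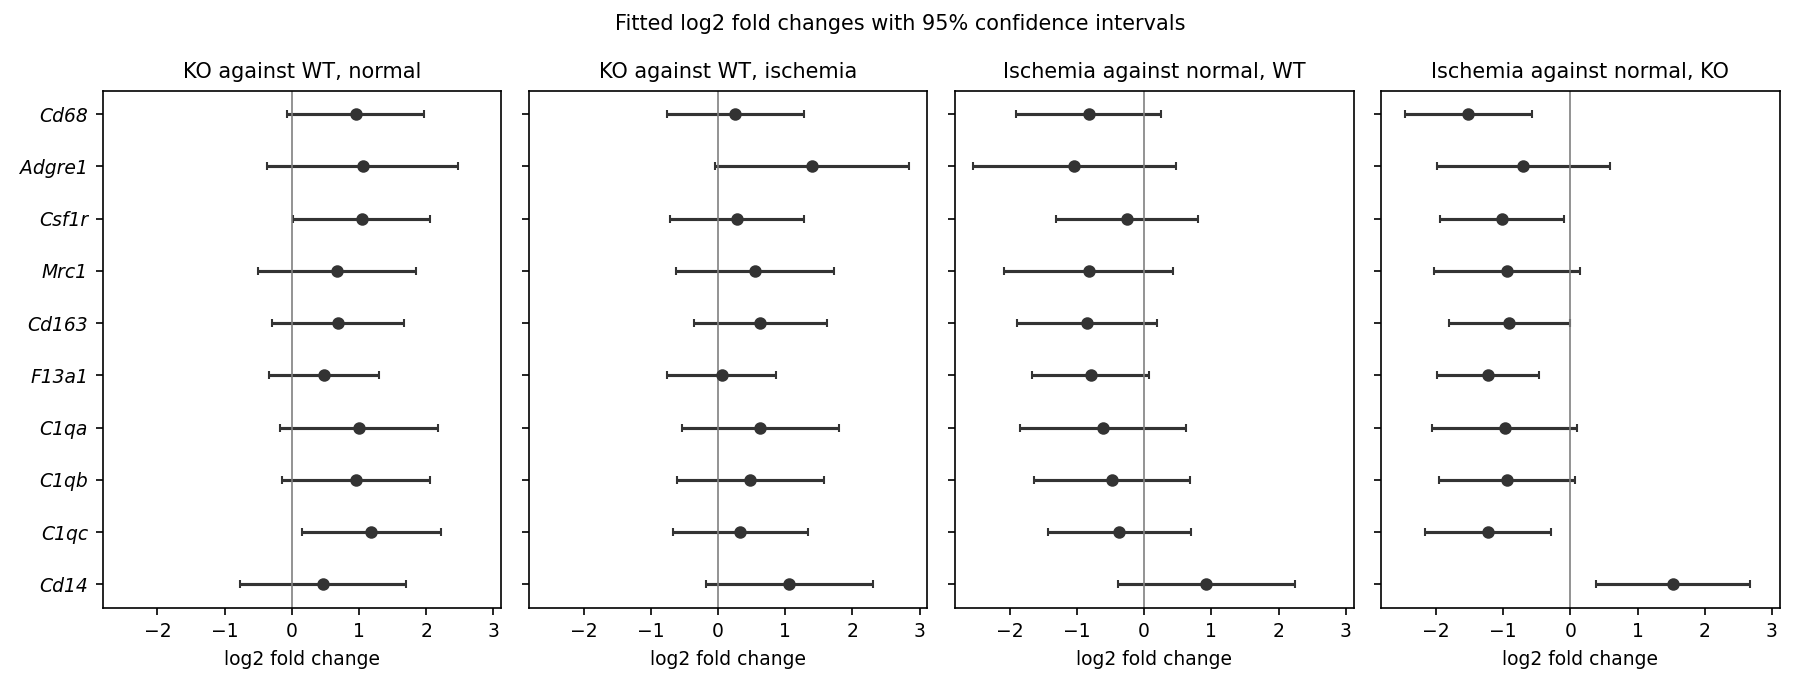
Fitted log2 fold change of each gene in the 4 comparisons, with 95% confidence intervals from edgeR's fit of all 14 mice. For KO mice after ischemia, 9 genes lie below 0 and Cd14 at 1.53, and between KO and WT mice all 10 points lie above 0 under both conditions with most intervals spanning 0.

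Drp1 KO mice had higher levels of all 10 genes than WT mice under normal conditions, although none passed the test, and 47.6% of all genes were at values above 0. The log2 fold change was 1.19 ± 0.48 (SE) for C1qc, 1.06 ± 0.66 for Adgre1, 1.04 ± 0.47 for Csf1r, 0.999 for C1qa, 0.95 for both C1qb and Cd68, 0.69 for Cd163, 0.67 for Mrc1, 0.48 for F13a1 and 0.46 for Cd14. The median was 0.95, beside −0.02 over all genes. In edgeR 0 of the 10 members were called, as were 0% of all genes, and adjusted p-values were at least 0.923. At an unadjusted p under 0.05 there were 2 of 10 members, C1qc and Csf1r, beside 5.25% of all genes. The groups did not overlap for 0 of the 10, beside 4.5% of all genes, since KO replicate 1 lay within the range of the WT mice for all 10. With any mouse left out all 10 values stayed above 0, but 7 moved by over 1.5 times. Without WT replicate 1 Cd68 was at 1.86, Cd163 at 1.55, C1qb at 1.44, Mrc1 at 1.31, F13a1 at 1.04 and Cd14 at 0.28. Without WT replicate 3, the library from the other lane, Cd68 was at 0.58, Cd163 at 0.40, Mrc1 at 0.37 and F13a1 at 0.26. Without KO replicate 2 Csf1r was at 0.69, Cd163 at 0.42, Mrc1 at 0.35 and F13a1 at 0.20, and without WT replicate 2 Cd14 was at 0.77.

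After ischemia the KO mice were again at fitted values above 0 for all 10 genes, beside 47.1% of all genes, from 0.05 for F13a1 to 1.06 ± 0.58 (SE) for Cd14 and 1.40 ± 0.67 for Adgre1, with a median of 0.52 beside −0.03 over all genes. In edgeR 0 of the 10 members were called, as were 0% of all genes, 0 had an unadjusted p under 0.05, beside 6.48% of all genes, and the smallest adjusted p was 0.715. The groups overlapped for all 10 members, beside 10.7% of all genes whose groups did not. Without WT replicate 1 after ischemia 4 of the 10 had values below 0, namely F13a1 at −0.19, Csf1r at −0.10, C1qc at −0.05 and Cd68 at −0.02, while Cd163 was at 0.37, C1qa at 0.21, Mrc1 at 0.14 and C1qb at 0.093. The highest values rested on single mice too. Adgre1 was at 0.65 without KO replicate 3, and Cd14 was at 0.52 without KO replicate 4 and at 2.02 without WT replicate 2. Averaged over both conditions, also added after the single comparisons, the genotype difference was 0.27 ± 0.27 (SE) for F13a1 to 1.23 ± 0.47 for Adgre1, with adjusted p-values of at least 0.612 in edgeR and 0 members called beside 0% of all genes. It was above 0 for all 10, beside 49.8% of all genes, and 2 of the 10 had an unadjusted p under 0.05, beside 7.77%. The comparisons within a condition or genotype share their groups with one another, so their directions are not independent of each other.

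Across the 14 mice, 9 of the 10 genes varied together and Cd14 did not. Pearson's r of log2 CPM was 0.739 (Adgre1 with F13a1) to 0.980 (C1qa with C1qb) over the 36 pairs without Cd14, with a median of 0.883. For the 9 pairs with Cd14 it was −0.189 to 0.243. With the group means removed, r was 0.649 to 0.990 over the 36 pairs (median 0.847) and 0.193 to 0.604 for the pairs with Cd14 (median 0.527). Within groups Cd14 thus varied in part with the others. Against the mean of the other 9 members, r was highest for Mrc1 (0.978) and lowest for F13a1 (0.813) apart from Cd14 (0.131). These values are over 14 mice, whose libraries share their tissue makeup and depth among all genes.

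**Figure D3:**
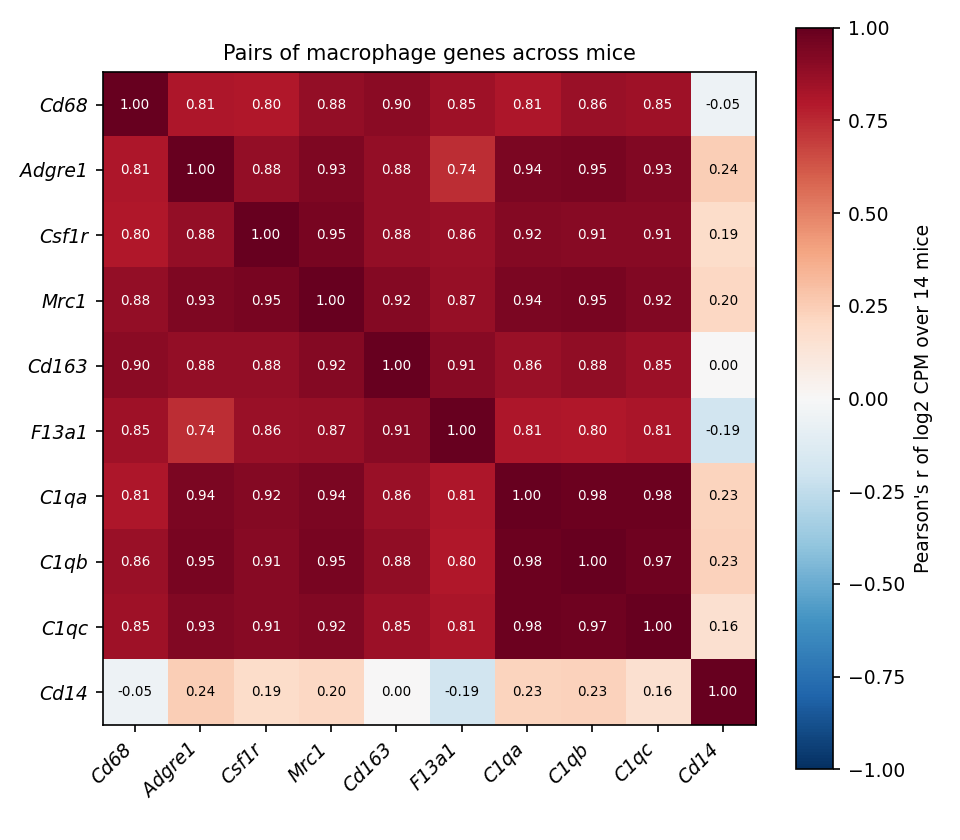
Pearson's r of log2 CPM over the 14 mice for each pair of the 10 genes, on a colour scale from −1 to 1. The 36 pairs without Cd14 form a block of 0.739 to 0.980, and the Cd14 row and column lie between −0.189 and 0.243.

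Set against the other 9 genes in the same library, Cd14 took 1.14, 4.38 and 3.23 counts per 100 counts of the others in the WT mice and 2.17, 1.58, 2.43 and 1.55 in the KO mice under normal conditions. After ischemia the ratio was 7.82, 11.98 and 2.92 in the WT mice and 7.84, 6.71, 9.04 and 17.4 in the KO mice. Under normal conditions the WT mean was 2.92 ± 1.64 (SD, n = 3) and the KO mean 1.93 ± 0.435 (SD, n = 4). In ischemic mice the means were 7.57 ± 4.54 for WT (SD, n = 3) and 10.2 ± 4.86 for KO (SD, n = 4). The KO groups did not overlap, and in WT mice replicate 3 after ischemia lay within the normal range. The ratio needs no scaling between libraries.

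**Figure D4:**
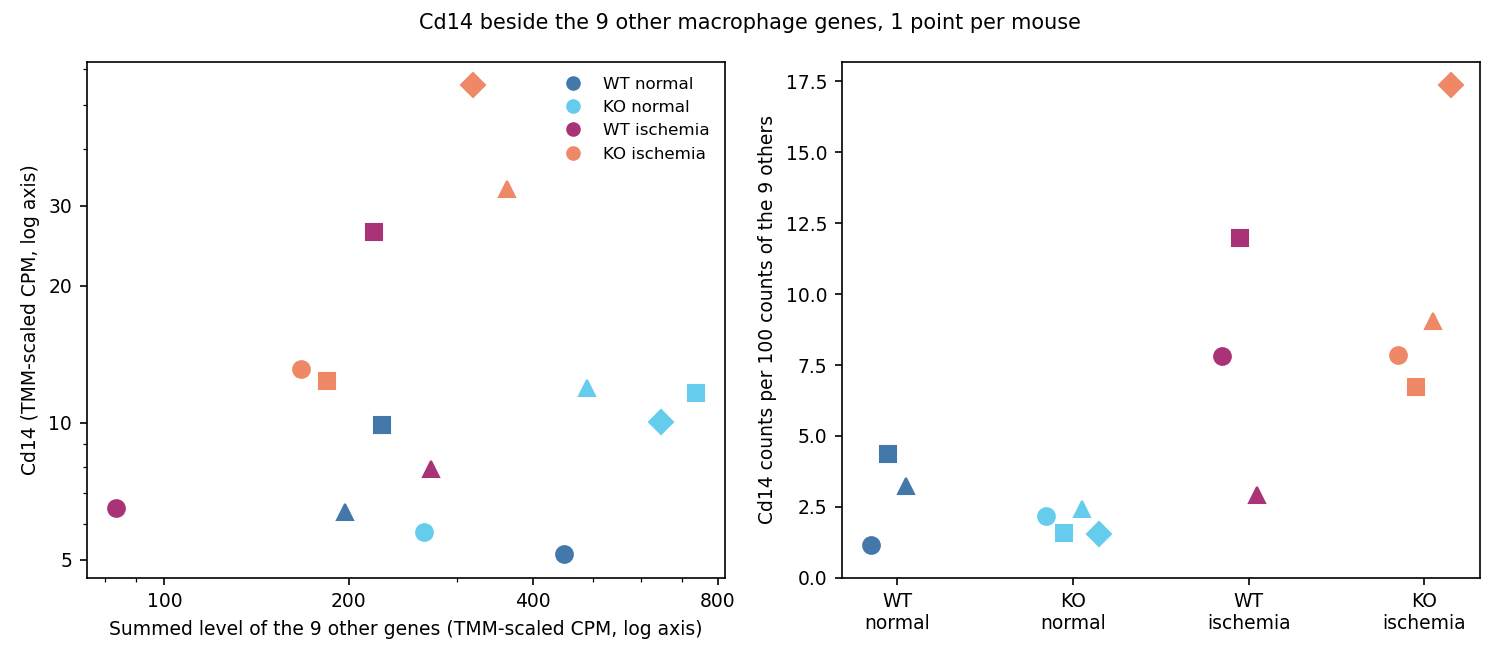
Left, Cd14 against the summed level of the 9 other genes in each mouse, in TMM-scaled CPM on log axes. Right, Cd14 counts per 100 counts of the 9 others by group on a linear axis from 0, with symbols for the replicate numbers: all 4 KO mice after ischemia, from 6.71 upward, lie above all 4 KO mice under normal conditions, at most 2.43.

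Of 17683 other genes, the 10 most like the mean of the members over the 14 mice were Lyz2 (r = 0.962), Pld4 (0.948), Thy1 (0.932), Ms4a6c (0.927), Cybb (0.917), Syk (0.916), Ptafr (0.915), Fcer1g (0.913), Fcgr2b (0.911) and Cd300ld (0.910). Lyz2 encodes the lysozyme of macrophages, Cybb the membrane subunit of the phagocyte NADPH oxidase, Fcer1g the signalling chain of Fc receptors, and Thy1 a surface protein of T cells and fibroblasts. The genes most like Cd14, a list added after the Cd14 values had been seen, were others, led by Spry4 (r = 0.912), Bcl10 (0.886) and Ccl4 (0.883). By ranks (Spearman's rho) the values were 0.938 for Spry4 and 0.714 for Bcl10, but 0.343 for Ccl4, which averaged 0.600 CPM.

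The mean log2 CPM of 15 tested genes shared by macrophages and monocytes tracked that of the members (r = 0.956), as did that of 11 tested genes of resident macrophages (r = 0.951). Among the general genes, 14 of 15 had fitted values below 0 after ischemia in KO mice, 7 of them at an unadjusted p under 0.05, and 14 of 15 in WT mice, 1 of them at that limit. Over all genes 54.1% were below 0 in KO mice, 7.47% at that limit, and 50.6% in WT mice. Lyz2, the most abundant, was at a log2 fold change of −0.97 in KO and −0.72 in WT mice, and Lgmn, a lysosomal protease and the next in abundance, at 0.04 in KO mice. The other resident genes were less uniform, with 8 of 11 below 0 in KO mice and 6 of 11 in WT mice. Cbr2 and Mertk, the 2 most abundant of them (251 and 108 CPM on average), were at 0.29 and 0.69 in KO mice after ischemia, whereas Folr2, named after its values were seen, was at −1.52 with all 4 KO mice after ischemia lower. Between KO and WT mice, 15 of the 15 general genes were above 0 under normal conditions and 13 after ischemia, beside 47.6% and 47.1% of all genes. Of the 11 other resident genes, 9 were above 0 under normal conditions but 4 after ischemia, with a median of −0.05. None of these genes was called.

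The genes that act with the members were examined by role. Csf1, the ligand of CSF1R, averaged 101 ± 51.6 CPM in normal WT mice (SD, n = 3) and 109 ± 6.59 CPM in normal KO mice (SD, n = 4). In ischemic mice it averaged 224 ± 101 CPM for WT (SD, n = 3) and 199 ± 33.7 CPM for KO (SD, n = 4). Its log2 fold change after ischemia was 1.15 in WT and 0.86 in KO mice (adjusted p = 0.513 and 0.248 in edgeR), and all 4 KO mice after ischemia were above all 4 under normal conditions, the opposite direction to its receptor. Averaged over both genotypes it was 1.01 (adjusted p = 0.0636). Il34, the other ligand, had a mean of 3.90 CPM over the 14 mice and fitted values of −0.84 in WT and −0.74 in KO mice after ischemia (adjusted p = 0.596 and 0.563 in edgeR), the same direction as the receptor.

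Of the 6 genes of the C1 proteases, their substrates and their inhibitor, 5 were tested. In KO mice all 5 were below 0 after ischemia, beside 54.1% of all genes, and 4 of them had an unadjusted p under 0.05, beside 7.47% that were lower at that limit, among them Serping1, the C1 inhibitor (−1.02), with C3 at −1.04. In WT mice 3 of the 5 were below 0, beside 50.6% of all genes. Serping1 was at 0.79 and C3 at −2.08 there (adjusted p = 0.545 and 0.514 in edgeR). C3 was far higher in WT replicate 2 under normal conditions, at 3290.02 CPM, than in the other WT mice, with 215 and 360.4 CPM in the other 2 under normal conditions and 273 to 359.5 CPM after ischemia. Between KO and WT mice all 5 were above 0 under normal conditions, beside 47.6% of all genes. Serping1 was at 1.24 (adjusted p = 0.882 in edgeR) and C3 at 0.0074. After ischemia 2 of the 5 were above 0, beside 47.1% of all genes, with Serping1 at −0.57 and C3 at 1.05. Of 7 partners of CD14 in sensing lipopolysaccharide, 3 were above 0 after ischemia in KO mice, and Tlr4, which encodes its signalling receptor, was at −0.08 and Myd88, its adaptor, at 0.40. None of these 12 tested genes was called.

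Markers of other cell types differed in how far they moved with the members. The sum of 5 red cell genes, led by Hbb-bs and Hba-a1, was 346 to 592 CPM in KO mice under normal conditions and 75.9 to 186 CPM after ischemia, without overlap, and 107 to 251 CPM and 4.62 to 109 CPM in WT mice. Over the 14 mice the mean log2 CPM of the red cell genes had r = 0.793 with the mean of the members, and 0.613 with the group means removed. The sum of 6 smooth muscle genes ran the other way (r = −0.509 for the mean log2 CPM), at 10268 to 24253 CPM in KO mice under normal conditions and 18454 to 29846 CPM after ischemia. For 5 fibroblast genes r was 0.580, and 0.736 with the group means removed. Their sum was 1554 to 9918 CPM in KO mice under normal conditions and 3216 to 4201 CPM after ischemia, with 4 of 5 below 0 in KO mice after ischemia, 2 of them at an unadjusted p under 0.05, and 5 of 5 above 0 in WT mice. For 5 T cell genes r was 0.576 and for 3 dendritic cell genes 0.562, or 0.223 and 0.440 with the group means removed. For 5 brown adipocyte genes r was 0.346, for 6 endothelial genes 0.248 and for 5 white adipocyte genes 0.0556. With the group means removed these were 0.163, 0.430 and −0.226. The part of red cells, smooth muscle, fibroblasts, T cells, dendritic cells, endothelium or fat in the levels of the members was not tested.

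Neutrophil genes were low, and the sum of 7 neutrophil genes was 0.767 to 7.49 CPM over the mice under normal conditions and 1.19 to 19.5 CPM after ischemia, with Ly6g at 0 counts in all 14 mice and Mmp8 at 0 in 8, and S100a9 and Csf3r the most abundant. Of the 5 neutrophil genes tested, 5 were above 0 after ischemia in WT mice and 3 in KO mice, and their mean log2 CPM had r = 0.619 with Cd14 and 0.206 with the members. Other lists stood as close to Cd14, with r = 0.662 for Csf1 and Il34, 0.635 for the brown adipocyte genes and 0.566 for the endothelial genes. The part of any of these in the Cd14 level was not tested. Of 7 monocyte genes, 5 were below 0 in each genotype after ischemia, beside 54.1% of all genes in KO and 50.6% in WT mice, and Ccr2, the chemokine receptor of inflammatory monocytes, was called in the comparison averaged over both genotypes, at a log2 fold change of −2.98 (adjusted p = 0.0444 in edgeR). All 5 genes of MHC class II antigen presentation, led by Cd74, were below 0 after ischemia in both genotypes. Of all genes 54.1% were in KO and 50.6% in WT mice. H2-Aa, H2-Ab1 and H2-Eb1 were low, averaging 0.753, 0.954 and 1.10 CPM. The sum of the 5 overlapped in KO mice, at 197 to 941 CPM under normal conditions and 31.0 to 336 CPM after ischemia. KO replicate 4 held the 941 CPM, and the next normal KO mouse was at 216 CPM. In WT mice the sums were 69.1 to 214 CPM and 20.5 to 54.6 CPM. Cd74 was at −1.29 in KO and −1.81 in WT mice. Cd3g, a T cell gene, was the other gene of these lists called in the averaged comparison (−4.78, adjusted p = 0.0322 in edgeR). Over all genes 0.927% were called there. Cd3g averaged 0.638 CPM, with 0 counts in 3 mice, and its highest mouse held 142 of its 303 counts. For Ccr2, at a mean of 2.54 CPM, the highest mouse held 445 of the 1193 counts.

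**Figure D5:**
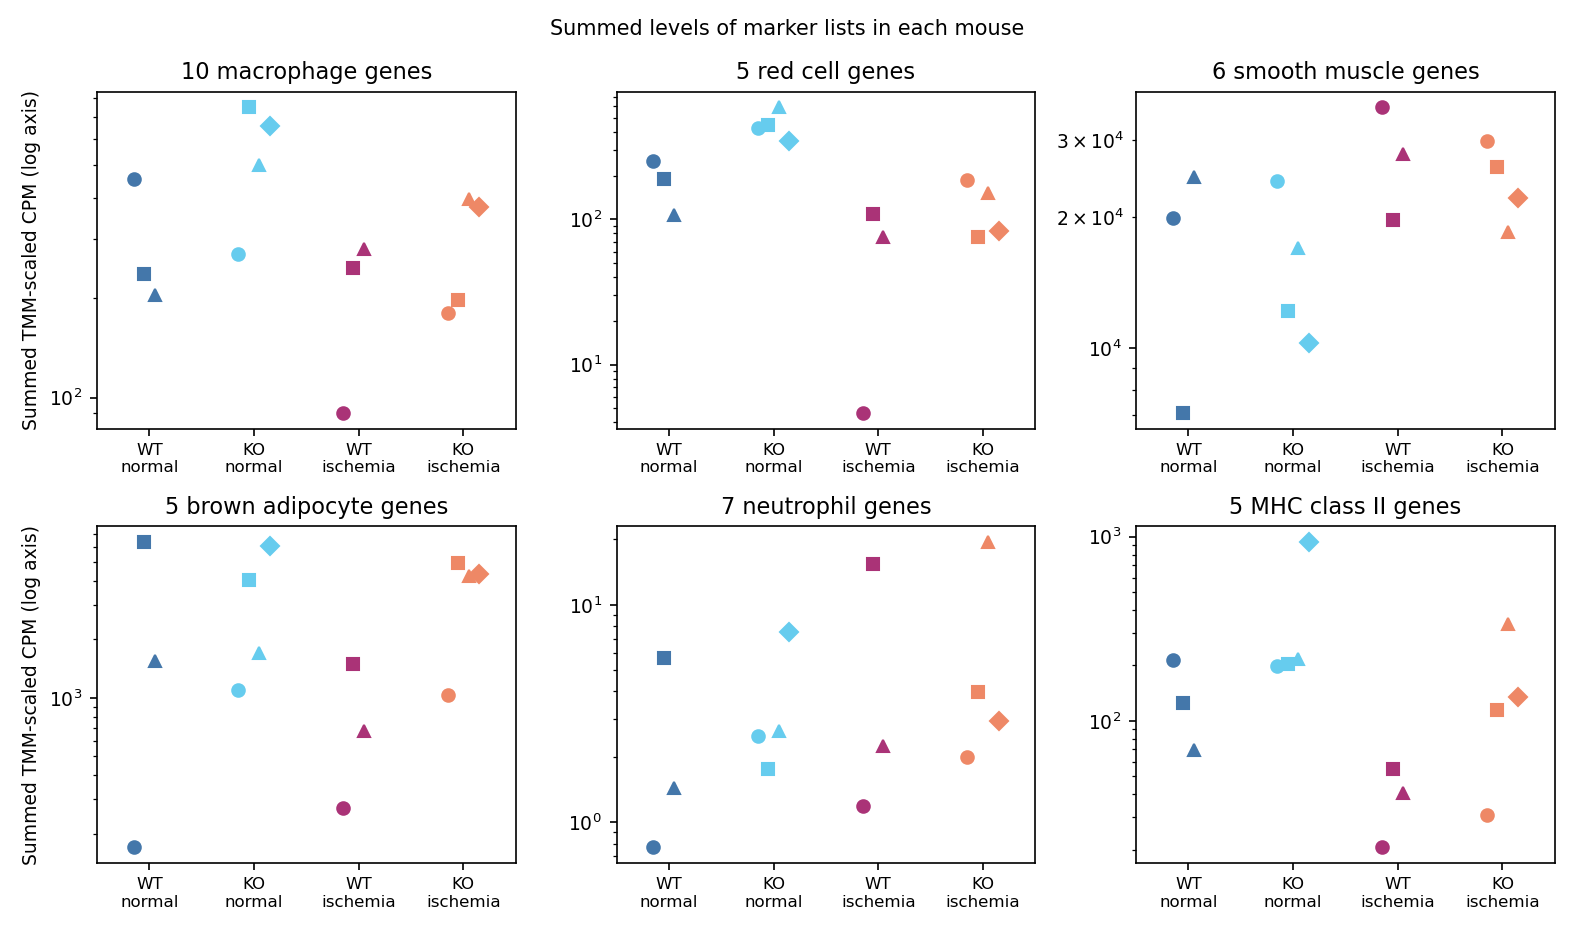
Summed TMM-scaled CPM of the 10 macrophage genes and of 5 marker lists in each mouse, on log axes, with colours for the groups and symbols for the replicate numbers. The red cell genes separate the KO mice under normal conditions (346 CPM or more) from those after ischemia (186 CPM or less), and the smooth muscle genes are lowest in WT replicate 2 under normal conditions at 7079.8 CPM.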

How the data were processed

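RNA was extracted from the SMA of 14 mice with Trizol and sequenced by standard Illumina protocols. The authors deposited 1 table of read counts per gene symbol and mouse, as whole numbers without normalization. The submitters' processing notes name HISAT2 2.0.4 and the mm10 build; the program that counted the reads and its strand setting are not given in the sources used here. Columns were matched to mice by the sample labels, and counts of mice of 1 group differed beyond sampling noise in all 18 pairs (lowest chi-square per degree of freedom 61.4).

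Counts of 46095 symbols were filtered with filterByExpr, which left 17693, scaled by TMM and fitted over all 14 mice with the quasi-likelihood test of edgeR 4.0.16 in R 4.3.3, with Benjamini-Hochberg adjustment over all tested genes. A gene was called past limits of 0.05 on the FDR and 1.5 on the fold change, which are those of the study's methods, whose RVM F-test on ratios was not used for counts. Levels are TMM-scaled CPM, and correlations use log2 CPM with a prior count of 2. The biological coefficient of variation was 52.2%, so the spread between mice limits most values. Lengths and positions come from GENCODE M21 on GRCm38, and promoters from RefSeq.

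The members and the 21 other gene lists were chosen with earlier results of these data known. The rule for naming took all members, genes called and the 2 most abundant genes of each other list. It also took list markers with 0 counts in a mouse and the 10 genes most like the mean of the members. The rule was not followed in full. Lists of haem handling, mast cell, B cell, mesothelial and pancreatic genes are not described. No values are given for some genes that the rule picks, such as Col3a1 and Cd8a. Other named genes were chosen after their values were seen. On simulated counts for 17693 genes with KO mice after ischemia changed, the steps recovered 10 of 67 genes lowered 2-fold, 38 of 67 lowered 4-fold and 48 of 66 lowered 8-fold, with 5 false calls. Alternatives were DESeq2 1.42.0, 2 other scalings, no low-count filter, no fold limit, fits of the compared groups alone, the replicate number as a block, and each mouse left out. Same-numbered mice of different groups are different animals, and the labels state no shared litter or day. Deviations from the group means of same-numbered mice had r of 0.12 to 0.19 in the 3 pairs of ischemic and normal WT mice. All 6 of these mice correlated best with their own number. Deviations from the mean of 3 mice are tied to one another, so such a match can arise by chance and establishes no pairing. Mice of unlike number in the KO groups reached r = 0.299. In each of the other 3 comparisons at least 1 pair was under 0.1. Some positions are not reported here.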

Additional observations from a re-analysis of the deposited data

Results flagged for a closer look

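The 4-mouse groups were searched for a mouse far from the other 3 in a member or in the ratio of Cd14 counts to those of the other members. In 22 groups examined, 1 mouse stood out. Cd68, which encodes a lysosomal glycoprotein of phagocytes, was at 10.8 CPM in KO replicate 3 after ischemia and at 6.54 to 7.05 CPM in the other 3 KO mice after ischemia. The gap was 0.881 of the range of the group, above Dixon's limit for 4 values. Chance marks about 1 in 20 groups, so 1 of 22 is what chance gives. Without this mouse the log2 fold change of Cd68 in ischemic against normal KO mice was −1.71, and with it −1.52.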

How the results depend on the processing

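The number of members called by edgeR was 0 in each of the 5 comparisons and both averaged ones under the other scalings, without the low-count filter, without the fold limit and with any mouse left out. DESeq2 called 2 members in ischemic against normal KO mice and 3 averaged over both genotypes, and the fit of the KO groups alone called 1. The cause was not tested. DESeq2 called 606 of 17693 genes in KO mice, beside 52 in edgeR's fit of all mice. The KO groups alone gave 267 of 15947. Averaged over both genotypes DESeq2 called 870 of 17693 genes, beside 164 in edgeR. With the replicate block 0 members were called in each comparison, the genes called in WT mice fell from 2 to 0 and in KO mice from 52 to 48, and the Mrc1 interaction was 0.20 in place of −0.12.

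With 1 mouse left out, 12 fitted values changed sign. After ischemia in WT mice Cd68 ran from −1.28 to 0.068, Csf1r from −0.70 to 0.13, C1qc from −0.69 to 0.018 and Cd14 from −0.0019 to 1.26. Between KO and WT mice after ischemia Cd68 ran from −0.022 to 0.73, Csf1r from −0.099 to 0.73, F13a1 from −0.19 to 0.42 and C1qc from −0.048 to 0.66. For the interaction Mrc1 ran from −0.71 to 0.22, Cd163 from −0.87 to 0.29, Adgre1 from −0.41 to 0.66 and C1qa from −0.80 to 0.13.

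The spread between mice, and not read depth, limits these values, since the lowest count of a member was 33. In ischemic against normal KO mice, with 4 mice in each group, a 2-fold difference was mostly not recovered on simulated counts.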
